A study of Mus musculus with 3 samples.

Results

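The genes described here are 33 chemokines and chemokine receptors, 19 ligands and 14 receptors, followed through tumours of the mouse spleen. They were chosen by name as the chemokine system outside the monocyte chemoattractants around Ccl8 and the organisers of the white pulp, and were found on the array through the RefSeq transcript that each probe carries. Of the 33, 32 had a named probe among 22908 genes that did. The ligand Cxcl11 had none that could be matched and was not analysed here. A gene was tested where its probe was well above background, by the scanner software's flag, on at least 1 array, which held for 29 of the 32 and for 15240 genes in all. Cxcl2, Cxcl14 and the receptor gene Ccr1 were not well above background on any array.

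The tumours came from 3 male mice aged 10 weeks. The p53+/− genotype, with p53 haploinsufficiency alone, gave 1 tumour, called the p53 tumour. The LSD1 × p53+/− genotype, which carries the same haploinsufficiency, gave 2 tumours from mice numbered 2 and 3, called L2 and L3, or the LSD1 tumours. LSD1 is a histone demethylase, and what the LSD1 element is in these mice is not given in the labels, nor which promoter drives it nor whether the numbers name lines. The tissue is labelled as splenic tumour and the protocol speaks of isolated splenic cells, with no treatment, pooling or sort stated. Total RNA, carrying the dye Cy3, was read on 1 Agilent expression array per tumour. Between 51.5% and 55.6% of non-control spots were well above background on each array, no spot was saturated, and the number of arrays limits the precision. Slide 1 and scan 1 held the p53 tumour with L3, while L2 was alone on slide 2 and scan 2. Spic, of splenic red pulp macrophages, and Stab2, of splenic sinus endothelium, were well above background in all 3 tumours.

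Chemokines are small secreted proteins that guide leukocytes by binding G protein-coupled receptors, and they are named for the spacing of their first cysteines (CC, CXC, CX3C or C). Inflammatory ligands such as those of CCR1 and CXCR3 are made on demand, while CXCL12 is made constantly by stroma. In the spleen these signals place lymphocytes and bring in myeloid cells. The pairing is loose, since several ligands share a receptor and several receptors share a ligand.

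Levels are log2 processed signals from which the array's 75th percentile was taken off, so that a level of 0 is the 75th percentile itself. They are always given in the order p53 tumour, L2, L3. They are compared between tumours for the same gene only, since probes differ in brightness. A gene was counted as different by size where it lay 2-fold or more (1 log2 unit) apart with the brighter side well above background. Where the dimmer side was not, the fold is given as "at least", against a floor, the lowest level that any probe well above background had on that array (-4.23, -3.86 and -3.87), or the probe's own value where that was higher. Ccl22, Ccr4 and Ccr8 passed only through L2, and Ccl17 only through the 2 LSD1 tumours, so that they had to differ in order to be tested. In bulk RNA, fewer cells of a type and less RNA per cell cannot be told apart.

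Most of these genes were at different levels in the 2 LSD1 tumours. Of the 29 tested, 22 (75.9%) were apart by 2-fold or more between L2 and L3, where 25.1% of all tested genes were. L2 was the higher in 14 (11.1% of all genes) and L3 in 8 (14% of all genes). Higher in L2 were the CCR4 ligands Ccl17 and Ccl22 with Ccr4, the eosinophil chemoattractant Ccl24, Ccl9, Ccl25, Cxcl12, and the receptor genes Ccr2, Ccr6, Ccr8, Ccr10, Cxcr2, Cxcr6 and Cx3cr1. Higher in L3 were Ccl3, Ccl4, Ccl5, Cxcl9, Cxcl10, Xcl1, Cxcr3 and the scavenger receptor gene Ackr3. For Xcl1 and Ccr10 the bound against background fell short of 2-fold (at least 1.76-fold and 1.32-fold), which left 20. By role, 12 of 16 ligands and 10 of 13 receptors were that far apart. These counts describe 2 arrays and carry no test, and since L2 alone lay on slide 2 and scan 2, tumour and slide cannot be told apart in them.

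**Figure D1:**
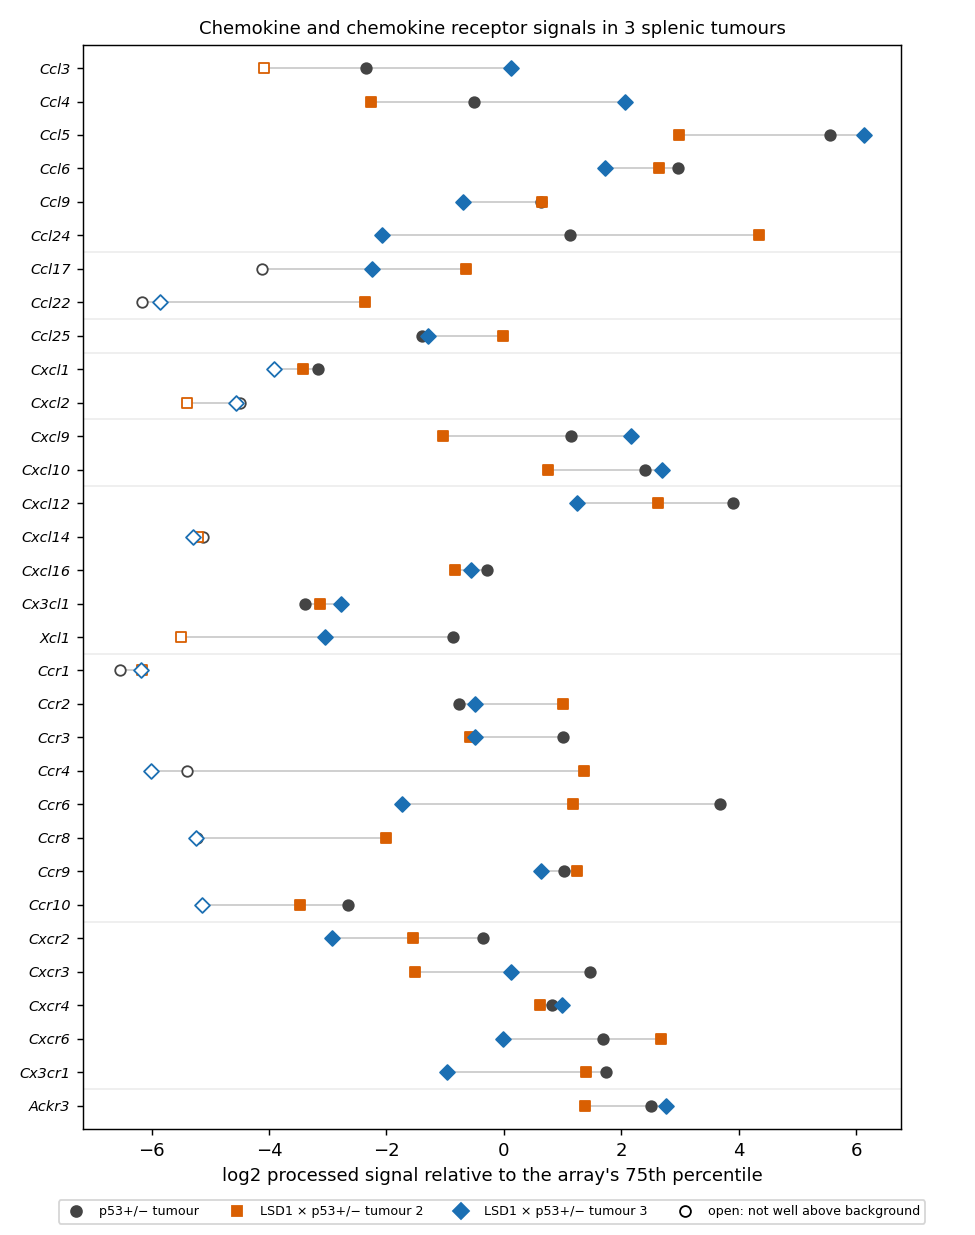
Log2 processed signal relative to the array's 75th percentile (x axis) of each chemokine or receptor gene with a named probe (y axis) in the p53+/− tumour (circles) and LSD1 × p53+/− tumours 2 (squares) and 3 (diamonds), 1 array each, with open symbols where the probe was not well above background. Ccr4 stands alone at 1.37 in L2, and Ccl24 spreads from -2.08 to 4.34. Symbols are to be compared within a row only.

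Against the p53 tumour, 7 of the 29 were higher by 2-fold or more and 12 were lower by as much in L2 (11.7% and 11.5% of all genes). In L3 these were 4 and 12 (15.2% and 11.5% of all genes). Only Ccl17 was higher by 2-fold or more in both, 3.45% of the 29 beside 3.48% of all genes, which is no more than the background share. With normexp background correction Ccl17 was below 2-fold in L3 (0.89 log2), leaving 0 higher and 6 lower. Lower in both by 2-fold or more were 6 (20.7%, beside 5.38% of all genes): Cxcl12, Xcl1, Ccr3, Ccr6, Cxcr2 and Cxcr3. Ccl3, Ccl4, Ccl24 and Cxcl9 were 2-fold or more away from the p53 tumour in opposite directions in the 2 LSD1 tumours, 4 of 29 beside 1.56% of all genes. The median difference of the 29 was -0.34 log2 in L2 and -0.40 in L3, beside 0.05 and 0.16 over all genes. Both comparisons share the p53 array. The difference of L3 from the p53 tumour is also the value within slide 1 and scan 1. limma called 0 of 15240 genes (0%) between the genotypes at an adjusted p of 0.05. At an unadjusted p under 0.05 it had 568 genes (3.73%), 1 of them among the 29. That was Ccr3 (adjusted p = 0.967 by limma). limma's p-values rest on the spread between the 2 LSD1 tumours, with 1 residual degree of freedom, moderated by the variance of all genes to 3.27 in all, and the lone p53 tumour is assumed to vary as they do.

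The CCR4 axis was higher in L2. CCL17 and CCL22, made largely by dendritic cells and macrophages, attract type 2 helper and regulatory T cells through CCR4. Ccr4 had levels of -5.39, 1.37 and -6.01. It was well above background in L2 alone, at least 48.6-fold above the p53 tumour and at least 37.8-fold above L3. The other Ccr4 probe showed the same order, with levels of -6.33, -0.13 and -6.03. Ccl17 had levels of -4.12, -0.64 and -2.25, so that it was at least 11.1-fold and 3.64-fold higher in L2 and L3 and 3.05-fold higher in the former of them. Ccl22 had levels of -6.16, -2.36 and -5.85 and, like Ccr4, was above background in L2 alone, at least 3.66-fold over the p53 tumour. That Ccr4 and Ccl22 were highest on the same array was fixed by the filter, through which each passed in L2 alone. The difference between genotypes was 3.07 log2 for Ccr4 with an SE of 3.57 (limma, adjusted p = 0.971) and 2.67 with an SE of 0.91 for Ccl17 (limma, adjusted p = 0.967). With normexp the differences of L2 from the p53 tumour were 4.25 log2 for Ccr4, 2.16 for Ccl17 and 1.32 for Ccl22.

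The stretches before the start sites of these 3 genes are shown because they are the ligands and the receptor of the CCR4 axis described above. They are the 250 bases before each RefSeq start, in assembly GRCm38.p6, at chr8:94810203-94810452 (plus strand), chr8:94745434-94745683 (plus strand) and chr9:114496545-114496794 (minus strand). Capitals mark matches to the interferon gamma activated site (GAS, TTCNNNGAA), the wider STAT6-type spacing (TTC and GAA with 4 bases between), the interferon-stimulated response element (ISRE, GAAA and GAAA with 2 bases between) or a loose kappaB pattern (GGG and CC with 5 bases between), searched on both strands. No GAS match overlapped a STAT6-type match in these windows.
Ccl17: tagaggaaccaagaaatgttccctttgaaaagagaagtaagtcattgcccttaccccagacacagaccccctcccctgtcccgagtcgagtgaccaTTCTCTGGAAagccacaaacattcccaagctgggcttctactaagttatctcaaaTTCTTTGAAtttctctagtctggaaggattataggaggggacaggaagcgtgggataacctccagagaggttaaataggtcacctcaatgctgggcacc
Ccl22: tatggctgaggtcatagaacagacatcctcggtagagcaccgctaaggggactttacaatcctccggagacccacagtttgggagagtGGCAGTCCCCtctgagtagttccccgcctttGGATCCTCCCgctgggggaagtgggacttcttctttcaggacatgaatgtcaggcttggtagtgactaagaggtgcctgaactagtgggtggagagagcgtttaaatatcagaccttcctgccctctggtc
Ccr4: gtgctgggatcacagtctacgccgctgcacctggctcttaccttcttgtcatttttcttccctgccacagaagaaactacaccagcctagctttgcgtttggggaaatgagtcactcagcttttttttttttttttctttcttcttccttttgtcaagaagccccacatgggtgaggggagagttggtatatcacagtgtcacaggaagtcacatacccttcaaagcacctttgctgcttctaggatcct
The Ccl17 window held a STAT6-type match from -154 to -145 and a GAS match from -99 to -91. The Ccl22 window held 2 kappaB matches, from -162 to -153 and from -131 to -122, and the Ccr4 window held none of the 4 patterns. Among 32851 windows of this length, 7.02% held a GAS match, 5.85% a STAT6-type match, 2.98% an ISRE match and 45.8% a kappaB match. Of the 33 genes 27 had a window in the supplied RefSeq table, with 29 windows in all, of which 3, 1, 2 and 15 held these matches. A match is a description of the letters.

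CCR8 marks type 2 helper T cells and regulatory T cells, and in mice its ligands include CCL8 and CCL1. Ccr8 had levels of -5.22, -2.00 and -5.25, above background in L2 alone and at least 4.70-fold above the p53 tumour, with a difference of 1.41 log2 under normexp. Its ligand gene Ccl8 had levels of -3.83, 1.24 and 3.09, so it was high in both LSD1 tumours, while the receptor was found in 1 of them. Ccl1 was not above background on any array. CXCR6 is carried by tissue-homing effector and innate-like T cells, and CXCL16 is its ligand. Cxcr6 had levels of 1.69, 2.68 and -0.02. That is 1.99-fold higher in L2 and 3.27-fold lower in L3, and its other probe gave 1.30 and -1.79 log2. Cxcl16 stayed within 1.48-fold of the p53 tumour, at levels of -0.28, -0.84 and -0.56 (-1.01 and -0.87 log2 from the p53 tumour by its other probe). Markers of T cells were highest in L2, as Cxcr6 was. Ccr4 and Ccr8 passed the filter only through L2, so their place as highest there was fixed by the filter. Of 10 T cell markers 8 were higher by 2-fold or more in L2 and 8 lower by 2-fold or more in L3. Of all genes 11.7% and 11.5% were. The summed linear signal of the 10 markers was 55.6, 211 and 25.2 times the 75th percentile. All 10 were well above background except Trat1 in L3. Their part in the receptor levels was not tested.

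CCL24 (eotaxin-2) draws eosinophils through CCR3 and is made by macrophages that meet type 2 cytokines. Ccl24 had levels of 1.12, 4.34 and -2.08, all well above background. It was 9.30-fold higher in L2 and 9.17-fold lower in L3 than in the p53 tumour, 85.3-fold apart between the LSD1 tumours. Ccr3, the eosinophil receptor, did not follow its ligand. Its levels were 1.0, -0.57 and -0.49, which is 2.97-fold and 2.81-fold lower, with the 2 LSD1 tumours 1.06-fold apart. Markers of eosinophils and basophils gave no common direction. Of 9, 2, namely Mcpt8 and Cpa3, were higher by 2-fold or more in both LSD1 tumours (3.48% of all genes). Cpa3 passed the filter only through the LSD1 tumours, so its place above the p53 tumour was fixed by the filter. Prg2 was lower by 2-fold or more in both, and 2 more were lower by their measured values alone (5.38% of all genes). The summed signal was 3.46, 1.81 and 9.14, and 2.43, 1.64 and 2.12 without Il5ra. The eosinophil genes Prg2 (3.29-fold and 3.94-fold), Siglecf (at least 1.54-fold and 1.55-fold) and Epx were lower in both LSD1 tumours, Siglecf and Epx being above background in the p53 tumour alone and Epx too dim there for a fold. Il5ra was 5.96-fold lower in L2 and 6.78-fold higher in L3. Of 14 monocyte and macrophage markers, 1 was higher by 2-fold or more and 2 lower in L2, and 1 higher and 4 lower in L3. Over all genes these shares were 11.7% and 11.5% in L2 and 15.2% and 11.5% in L3. The summed signals of the 14 markers were 292, 230 and 265. Siglec1 was the marker of this list not above background, in L3. The part of these cells in Ccl24 and Ccr3 was not tested.

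CCR2 brings monocytes out of the marrow. Ccr2 had levels of -0.76, 1.0 and -0.49, 3.38-fold higher in L2 and 1.20-fold higher in L3, the latter with the opposite sign in the authors' value table (-0.10 log2). Of its ligand genes, Ccl2 exceeded the p53 tumour in both LSD1 tumours by 4.0-fold and 3.21-fold and Ccl12 by at least 18.1-fold and 9.02-fold. Ccl12 passed the filter only through the LSD1 tumours. CCL25 directs thymocytes and gut-homing T cells through CCR9. Ccl25 had levels of -1.39, -0.02 and -1.30, 2.59-fold higher in L2 alone. Ccr9 stayed within 1.32-fold of the p53 tumour in both LSD1 tumours, with levels of 1.03, 1.24 and 0.63.

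**Figure D2:**
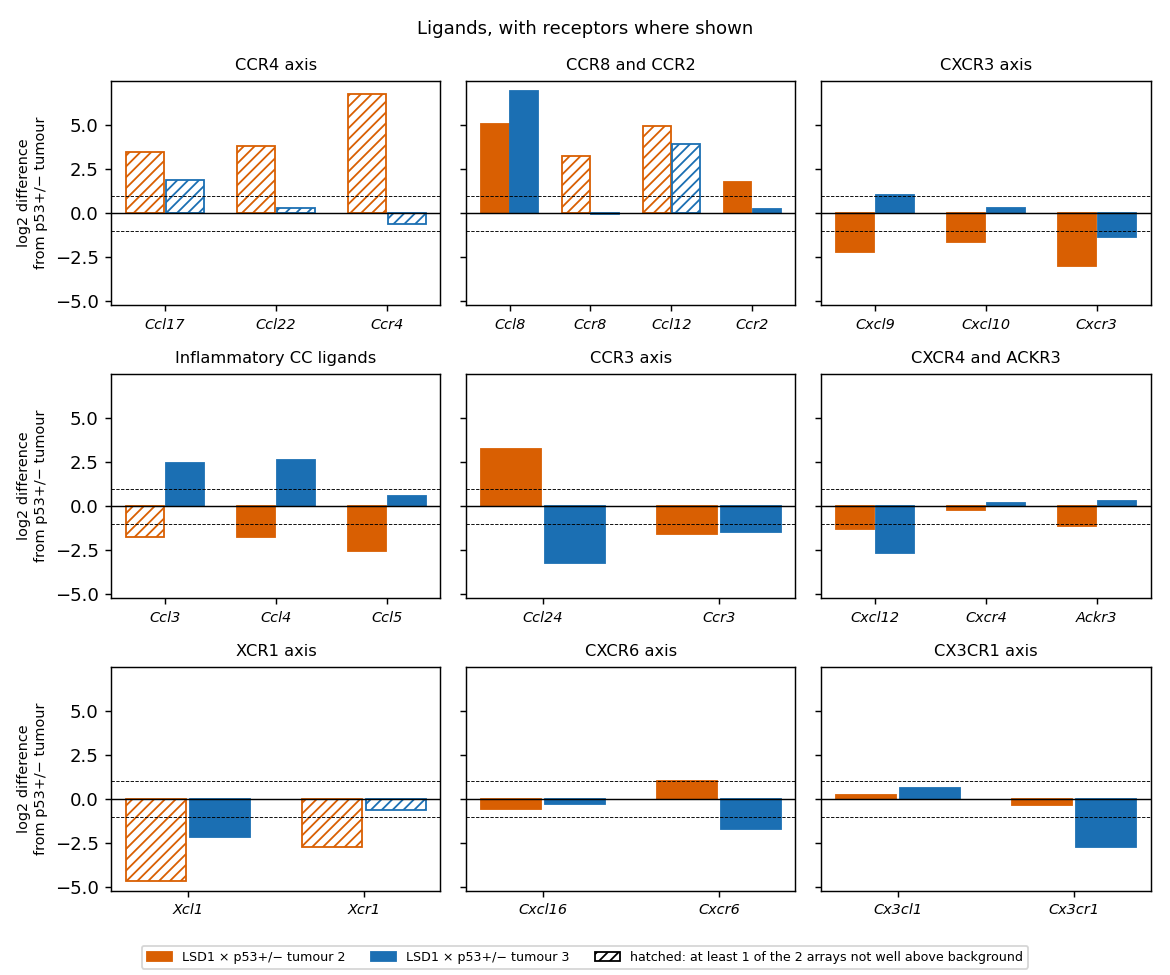
Log2 difference from the p53+/− tumour (y axis) of ligands and receptors (x axis) in LSD1 × p53+/− tumours 2 (orange) and 3 (blue), 1 array each, dashed lines at 2-fold. Ccr4 and its ligands are high in tumour 2, Cxcl9 and Cxcl10 are low in tumour 2 while Cxcr3 is low in both, and Ccl24 has opposite signs in the 2 tumours. Hatched bars have at least 1 array not well above background and show no measured size.

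Ccl3, Ccl4, Ccl5 and the CXCR3 ligands Cxcl9 and Cxcl10 were lower in L2 than in either other tumour. CCL3, CCL4 and CCL5 are released by activated macrophages, NK cells and cytotoxic T cells, and CXCL9 and CXCL10 are induced by interferon gamma and attract T helper 1 cells, cytotoxic T cells and NK cells through CXCR3. Ccl4 had levels of -0.51, -2.26 and 2.07, that is 3.35-fold lower in L2, 6.0-fold higher in L3 and 20.1-fold apart between them. Its other probe gave levels of -1.28, -3.01 and 1.35. Ccl3, whose gene lies beside Ccl4, had levels of -2.34, -4.08 and 0.13. It was not above background in L2, at least 2.87-fold below the p53 tumour, and was 5.53-fold above it in L3. With normexp the former difference was -0.86 log2, short of 2-fold. Ccl5 had levels of 5.56, 2.99 and 6.13, 5.94-fold lower in L2 and 1.48-fold higher in L3. All 3 had the same order of tumours.

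Cxcl9 had levels of 1.15, -1.03 and 2.17, 4.56-fold lower in L2 and 2.02-fold higher in L3. The latter was below 2-fold with normexp (0.92 log2), quantile normalization (0.81) and the authors' value table (0.65). Cxcl10 had levels of 2.40, 0.75 and 2.70, 3.14-fold lower in L2. Its difference in L3, 0.30 log2, turned in the authors' value table (-0.07) and under quantile normalization (-0.02). Both ligands were thus at their lowest in L2 and lay 9.20-fold and 3.87-fold higher in L3. Their receptor gene Cxcr3 was also lowest in L2 and 3.11-fold higher in L3, but differed from them in the place of the p53 tumour. It had levels of 1.46, -1.52 and 0.12, 7.85-fold lower in L2 and 2.52-fold lower in L3, so it was highest in the p53 tumour. The difference between genotypes was -2.15 log2 with an SE of 0.92 (limma, adjusted p = 0.967).

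The 250 bases before the starts of Cxcl9 and Cxcl10 are shown with the same marks, since both genes were lowest in L2 and their start sites lie 20.8 kb apart. They lie at chr5:92328080-92328329 and chr5:92348890-92349139 in GRCm38.p6, both on the minus strand.
Cxcl9: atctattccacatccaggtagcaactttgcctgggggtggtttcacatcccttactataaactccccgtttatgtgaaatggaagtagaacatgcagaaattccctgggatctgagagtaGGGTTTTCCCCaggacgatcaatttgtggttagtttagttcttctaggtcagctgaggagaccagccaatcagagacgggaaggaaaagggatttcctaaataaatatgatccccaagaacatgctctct
Cxcl10: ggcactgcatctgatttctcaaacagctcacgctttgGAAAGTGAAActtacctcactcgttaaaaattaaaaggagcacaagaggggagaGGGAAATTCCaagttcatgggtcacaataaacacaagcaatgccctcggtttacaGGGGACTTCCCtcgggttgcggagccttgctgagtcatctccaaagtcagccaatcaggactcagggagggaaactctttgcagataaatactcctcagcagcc
The Cxcl10 window held an ISRE match from -213 to -204 and kappaB matches from -159 to -150 and, overlapping each other, from -104 to -94. The Cxcl9 window held overlapping kappaB matches from -130 to -120 and no match to the other 3 patterns.

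The interferon gamma gene had the order of Cxcl9 and, in the scaling used here, of Cxcl10. Its part in these ligands was not tested. Ifng had levels of -1.23, -2.27 and 1.27, 2.07-fold lower in L2 and 5.64-fold higher in L3. Of 12 genes around interferon gamma and its response, 6 were lower by 2-fold or more in L2 and none higher, while 3 were lower and 2 higher in L3. Of all genes 11.5% were lower in L2, and 11.5% were lower and 15.2% higher in L3. The list's medians were -1.0 and -0.41. Tbx21, the T helper 1 transcription factor gene, was 3.19-fold and 4.31-fold lower, and Il12a, for a subunit of interleukin 12, was 3.09-fold and 2.80-fold lower. None of the 12 passed limma's adjusted threshold, and 2 had an unadjusted p under 0.05.

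XCL1 is secreted by NK cells and cytotoxic T cells and attracts cross-presenting dendritic cells through XCR1. Xcl1 had levels of -0.87, -5.50 and -3.04, at least 7.90-fold lower in L2, where it was not above background, and 4.48-fold lower in L3 (limma, adjusted p = 0.967). Its receptor gene Xcr1 exceeded background nowhere but in the p53 tumour, with levels of -3.29, -6.00 and -3.91, at least 1.48-fold and 1.49-fold lower. Xcr1 passed the filter only through that tumour, so its place as the highest there was fixed by the filter. Of 8 NK cell markers, 4 were lower by 2-fold or more in both LSD1 tumours (5.38% of all genes) and none higher. Their summed signals were 30.0, 23.7 and 8.45 (9.61, 3.07 and 4.04 without Gzma, the brightest). Ncr1, among the 4, was not above background in either LSD1 tumour. It passed the filter only through the p53 tumour, so its place as highest there was fixed by the filter. Of 10 dendritic cell markers, which include the receptor genes Xcr1 and Ccr7, 5 were lower by 2-fold or more in both (5.38% of all genes). Ccr7 was among these 5, and none of the 10 was higher in both. The summed signals of these 10 were 193, 149 and 135 (37.8, 12.3 and 11.5 without Siglech, the brightest). Of the 10, 3, namely Cd209a, Clec4a4 and Xcr1, were not above background in either LSD1 tumour. Cd209a and Clec4a4, both among the 5, thus passed the filter only through the p53 tumour, as Xcr1 did. The other members of both lists were mixed, with Prf1 1.22-fold and 1.08-fold higher and Zbtb46 2.16-fold higher in L3. The part of these cells in Xcl1, Xcr1, Cxcr3 and Ccl3 to Ccl5 was not tested.

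CXCL12 retains progenitors and B cells in stromal niches through CXCR4, and ACKR3 binds it without G protein signalling and clears it. Cxcl12 had levels of 3.90, 2.62 and 1.25, 2.44-fold and 6.27-fold lower in L2 and L3, and its other probe gave -1.35 and -2.05 log2. Cxcr4 was within 1.16-fold of the p53 tumour in both, with levels of 0.82, 0.61 and 0.99. Its other probe gave -0.76 and 0.33 log2, and the difference in L3, 0.17 log2, was -0.20 in the authors' value table. Ackr3 had levels of 2.50, 1.38 and 2.77, 2.19-fold lower in L2. In L3 its difference of 0.27 log2 turned in the authors' value table (-0.10). The ligand was thus lowest in L3 and its scavenger in L2. Of 12 stromal and endothelial markers, all above background, 1 was lower by 2-fold or more in both LSD1 tumours (5.38% of all genes) and none higher in both. Their summed signal was 71.4, 37.8 and 73.8. Without Ly6c1, the brightest, the other 11 summed to 33.6, 25.8 and 21.4. That sum, chosen after seeing the data, had the order of Cxcl12. Of the 11, only Pdgfra, Pdgfrb, Col3a1 and Pecam1 had that order singly. Lepr was higher in both LSD1 tumours, with levels of 1.54, 2.22 and 1.67. The part of stromal and endothelial cells in Cxcl12 was not tested.

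CCR6 is carried by B cells, and by some T cells and dendritic cells, and CCL20 is its ligand. Ccr6 had levels of 3.68, 1.18 and -1.74, 5.65-fold and 42.8-fold lower in L2 and L3 (limma, -3.96 log2 with an SE of 1.48, adjusted p = 0.967). Ccl20 was not above background on any array. All 10 B cell markers were lower by 2-fold or more in L2 and 6 in L3 (11.5% of all genes in each), with summed signals of 300, 42.9 and 153. Fcer2a was the B cell marker not above background, in L3. The summed B cell signal was higher in L3 than in L2, and Ccr6 was lower there. Of the 10, 6 were higher by 2-fold or more in L3 than in L2, where 14% of all genes were. Cr2 and Fcer2a went the other way, as Ccr6 did, with Cr2 19.5-fold and 163-fold lower than in the p53 tumour. Their part in Ccr6 was not tested.

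CXCR2 draws mature neutrophils towards CXCL1 and CXCL2. Cxcr2 had levels of -0.36, -1.54 and -2.93, 2.28-fold and 5.94-fold lower. Cxcl1 had levels of -3.17, -3.42 and -3.92 and was not above background in L3. Of 13 measured neutrophil markers 8 were higher by 2-fold or more in both LSD1 tumours (3.48% of all genes) and none lower by as much. The summed signals of the 13 were 263, 410 and 375. The receptor went against these 8. S100a8 (1.1 and 0.96 log2) and S100a9 (0.89 and 0.74) were also higher. Retnlg (0.01 and -0.89 log2), Mmp9 (-0.04 and -0.99) and Csf3r (-0.08 and -0.25) were not, and were lower in L3, as Cxcr2 was. The part of neutrophils in Cxcr2 was not tested. All 13 were above background on each array.

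CX3CR1 marks patrolling monocytes and some macrophages. Cx3cr1 had levels of 1.74, 1.40 and -0.96, 6.51-fold lower in L3 and 1.27-fold lower in L2. Its ligand gene Cx3cl1, which lies between Ccl22 and Ccl17 in a stretch of 64.8 kb between their starts, had levels of -3.38, -3.13 and -2.77 and was within 2-fold in both LSD1 tumours. Cx3cl1 thus differed from these neighbours. Ccr8 and Cx3cr1, with starts 23.8 kb apart, likewise differed, the former high in L2 and the latter low in L3. Ccl22 and Ccr8 passed the filter only through L2. Among the other neighbours, Cxcl9 and Cxcl10 were both lower in L2, and Ccl6 and Ccl9 were both lower in L3. Ccl3, with its start 56.3 kb from that of Ccl6, was instead 5.53-fold higher in L3. Cxcr6, with its start 39.3 kb from that of Ccr9, was 3.27-fold lower in L3, where Ccr9 was 1.32-fold lower.

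The remaining genes concern myeloid ligands and plasma cells. CCL6 and CCL9, ligands of CCR1 made by myeloid cells, were lower in L3. Ccl6 had levels of 2.96, 2.64 and 1.72, 2.36-fold lower there. Ccl9 had levels of 0.63, 0.65 and -0.70, 2.52-fold lower there. Their starts lie 14.5 kb apart. CCR10 guides plasma cells and skin-homing T cells. Ccr10 had levels of -2.65, -3.47 and -5.14, 1.76-fold lower in L2 and at least 2.33-fold lower in L3, with a difference of -0.84 log2 under normexp. Its ligand gene Ccl27a was 1.98-fold and 1.13-fold lower, and Ccl28 was not above background on any array.

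**Figure D3:**
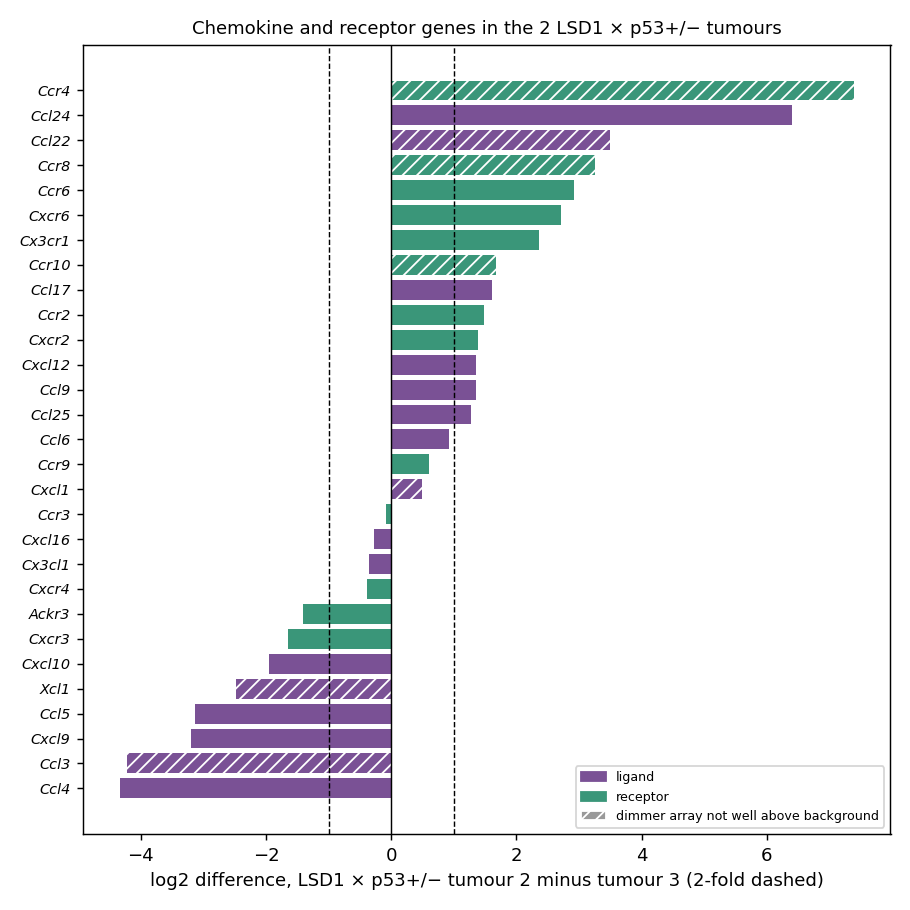
Log2 difference between LSD1 × p53+/− tumour 2 and tumour 3 (x axis, tumour 2 minus tumour 3, dashed lines at 2-fold) of the 29 genes tested, ligands in purple and receptors in green, 1 array each. Ccr4 (7.39) and Ccl24 (6.41) lie at one end and Ccl4 (-4.33) and Ccl3 (-4.22) at the other. Hatched bars have a dimmer array not well above background, and their length is no measured size.

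The other genes of the chemokine system, listed by name, gave a mixed picture. Of 17 other ligands 11 were tested, with 4 higher by 2-fold or more and 1 lower in both LSD1 tumours (Ccl7, 1 of the 4, by a bound of at least 1.51-fold in L3). Ccl7 and Ccl12, both among the 4, passed the filter only through the LSD1 tumours. Their place above the p53 tumour was thus fixed by the filter. Of all genes 3.48% were higher and 5.38% lower in both. The largest differences were in the monocyte chemoattractants Ccl8 and Ccl12 given above and in Cxcl13, the chemokine of B cell follicles, with levels of 3.14, -0.70 and -1.12. Ccl11 (eotaxin-1), a further CCR3 ligand, had levels of -4.67, 0.18 and -4.56, above background in L2 alone. It passed the filter only through L2, as Ccr4 and Ccl22 did, so its place as highest there was fixed by the filter. It was named after its values were seen. Of 10 other receptors 9 were tested, with 2 lower by 2-fold or more in both (5.38% of all genes) and none higher. These were Ccr7, the homing receptor of T cell zones (levels of 4.49, 2.58 and 1.89), and Cxcr5, the receptor of B cell follicles (3.40, 1.14 and 2.31). Ackr2, which clears inflammatory CC chemokines, had levels of 1.01, -2.00 and 0.67, 8.04-fold lower in L2. None of these genes passed limma's adjusted threshold.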

How the data were processed

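Gene expression was measured in 3 splenic tumours on 1 array each. Arrays were read with Agilent's Feature Extraction software, as the submitters' notes and the scans' headers record. The processed signal is a linear intensity, background-subtracted and detrended within the array by the authors' software, per the file headers. The authors' value table holds the same intensities times 1 factor per array (1.06, 0.779 and 0.902), and what the factors were set on is not stated.

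The signal was scaled to the 75th percentile of non-control spots (608, 712 and 554) before log2 values were formed, without spots flagged as outliers and with repeat spots of a probe averaged. Probes were named through RefSeq accessions in the supplied table of assembly GRCm38.p6 (32994 of 56605). Promoter coordinates are those of GRCm38.p6, whereas the probes were designed on mm9. Where a gene had several probes, the brightest on average was used. The genotypes were compared over 15240 genes with limma 3.58.1 in R 4.3.3 (Benjamini-Hochberg, threshold 0.05), checked on simulated data. Alternatives were normexp with an offset of 50 on the median spot signal, since the scans used here hold no mean signal, quantile normalization, the authors' value table, other filters and probe rules, and leaving out each LSD1 tumour. A planned comparison of protein sequences was not made. The values of 1 listed receptor gene are not reported here.

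Each chemokine or receptor gene past 2-fold in either LSD1 tumour is given on each array, and up to 3 genes per pathway list by mean absolute difference. The members, lists and tests were chosen with earlier results of these data known. Nothing in the labels says that the tumours are more than single samples. The p-values weigh the difference between genotypes against the spread between the 2 LSD1 arrays, moderated across genes.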

Additional observations from a re-analysis of the deposited data

How the results depend on the processing

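Of the 33 genes, the calls by size held in most settings. Ccl17 was the 1 gene higher in both LSD1 tumours, except with normexp and among genes above background on all 3 arrays, where the count was 0. The 6 lower genes were the same in each setting except that Xcl1 left the list among genes above background on all 3 arrays (5) and Ccr10 joined it in the authors' value table (7). With 1 LSD1 tumour left out, between 4 and 7 were higher and 12 lower in either case, and within slide 1 and scan 1 these were 4 and 12. The counts apart between the LSD1 tumours ran from 15 to 23 over the settings, and no call turned its sign. Among the lists, the interferon gamma axis had 2 genes lower in both, 1 with normexp and 4 with quantile normalization, in the authors' value table and with the percentile over detected probes. Other ligands had 1 lower, and 2 in those same 3 settings, and 4 higher, but 2 among genes above background on all 3 arrays. Receptor signalling had 5 lower and 3 with the mean of all probes. Over all genes, 531 were higher and 820 lower in both (39.3% higher), and 219 and 1266 in the authors' value table (14.7% higher), where the median differences moved from 0.05 and 0.16 to -0.16 and -0.20. They numbered 274 and 1151 with the percentile over detected probes (19.2% higher), 323 and 394 with normexp, and 447 and 416 among genes above background on all 3 arrays (51.8% higher). limma called 0 genes in each setting, with 558 to 702 at an unadjusted p under 0.05, and 1756 with no filter on dim probes. The cause of these moves was not tested. The filters change how many genes enter, 12812 when all 3 arrays must be above background and 22908 with no filter on dim probes. A bound given as "at least" holds for the scaling used here. The count of 20 against that bound and the marker sums without their brightest gene were alternatives chosen after seeing the data. No paired analysis was possible because the groups share no replicate number. Leaving out a tumour leaves 1 array against 1 and no test.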

Other observations

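Genes that carry and end the receptors' signal were lower more often than higher. Of 24 genes of receptor signalling and regulation, all above background on each array, 5 were at least 2-fold lower and 1 at least 2-fold higher in both LSD1 tumours, where 5.38% and 3.48% of all genes were (3 lower with the mean of all probes of a gene). The medians were -0.66 log2 in L2 and -0.46 in L3. Dock2, the Rac activator of migrating lymphocytes, was 2.28-fold and 2.33-fold lower, and Gng2, a G protein subunit, 2.18-fold and 2.23-fold lower. Grk3, a kinase that turns receptors off, was 2.65-fold and 2.28-fold lower. Rgs2, a brake on G protein signalling, was lower by 3.06-fold and 2.67-fold, whereas Rgs16, another such brake, was higher by 2.61-fold and 3.21-fold. Dpp4, the protease that trims chemokines such as CXCL12, had levels of 0.48, -0.79 and -1.96 and was 2.42-fold and 5.41-fold lower. Dock2, Gng2 and Grk3 were named after their values were seen. None passed limma's adjusted threshold, and 2 of the 24 had an unadjusted p under 0.05.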
